A study of Homo sapiens with 4 samples.

Results

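MiR-31 is a microRNA made from a single human hairpin, and reads of its 5p strand (miR-31-5p) and its 3p strand (miR-31-3p) were examined here in cells of HCT116, a long-established human line from a colorectal carcinoma. The members were taken by name: hsa-miR-31-5p and hsa-miR-31-3p are 2 of the 1644 miRNA names counted, and 61 of the 12689 isoforms are theirs, 34 of the 5p arm and 27 of the 3p arm. Small RNA was sequenced in 4 libraries, 1 per transfection: the empty pCDNA3 vector, the wild-type pri-miRNA plasmids, the mutant 1 pri-miRNA plasmids and the mutant 2 pri-miRNA plasmids. These libraries are called empty vector, wild type, mutant 1 and mutant 2. The wild-type mixture expressed pri-mir-342, pri-mir-200b, pri-mir-128-1, pri-mir-885, pri-mir-576, pri-mir-30d, pri-mir-142 and pri-mir-30a. The mutant 1 mixture expressed variants of these, the mutant 2 mixture a variant of pri-mir-342 with empty vector, and all but the empty vector transfection also received pri-mir-16-1. The sources list the mixtures without the names mutant 1 and mutant 2, which were matched to them by their order. The deposited plasmid sequences also include pri-miRNAs beyond these, such as pri-mir-182, but none encodes miR-31, so its reads come from the cells' own gene. All cells of a transfection were sequenced together, whether or not they took up plasmid, and fewer expressing cells and fewer molecules per cell cannot be told apart. There was 1 library per condition, so no difference between conditions was tested, and the intervals given (95%) cover counting error only.

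A mature miRNA is cut out in 2 steps. In the nucleus, DROSHA within the Microprocessor complex releases the hairpin from the primary transcript and so sets the start of the 5p arm and the end of the 3p arm. DICER then removes the loop, which sets the end of the 5p arm and the start of the 3p arm. One strand of the duplex is kept in an Argonaute protein as the guide and the other, the passenger strand, is mostly lost. The 5p end of the guide fixes its seed, the bases that pair with target mRNAs, whereas the 3p end can be trimmed or extended after cleavage. MiR-31-5p is the usual guide of its hairpin and is widely known as a miRNA that is higher in colorectal carcinoma than in normal mucosa.

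The sequences below carry the results on ends. The capitals mark the seed (bases 2 to 8) in the annotated miRNA and in the form that starts 1 nt downstream, the added base in the most frequent read, and the 5p arm within the hairpin. All are on the minus strand of chromosome 9 (GRCh38, RefSeq).
miR-31-5p, annotated, 21 nt, chr9:21512158-21512178: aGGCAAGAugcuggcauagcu
miR-31-5p, most frequent read, 22 nt, chr9:21512157-21512178: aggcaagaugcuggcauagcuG
miR-31-5p, start 1 nt downstream, 21 nt, chr9:21512157-21512177: gGCAAGAUgcuggcauagcug
MIR31 hairpin, 71 nt, chr9:21512115-21512185: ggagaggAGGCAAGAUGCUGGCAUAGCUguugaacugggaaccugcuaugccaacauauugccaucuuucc

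The MIR31 hairpin lies within MIR31HG, a long noncoding RNA gene that spans chr9:21380073-21559891 on the same strand. In the GENCODE release 44 annotation, 21 of the 27 MIR31HG transcripts span the hairpin, in an intron in all 21 and in an exon in 0. The mature miR-31-5p sequence matches the genome exactly at 1 place only. Its seed, GGCAAGA, is carried by 1 of 2370 mature miRNAs in RefSeq, which is miR-31-5p itself, and the seed after a shift of 1 nt, GCAAGAU, by 0 of them. Folding of the hairpin with RNAfold gave a free energy of -36.8 kcal/mol and a terminal loop of 8 nt. Counted from 1 at the annotated 5p start, 18 of the 22 bases of the most frequent read were in Watson-Crick pairs, and those at positions 1, 7, 11 and 21 were unpaired. This is a prediction from the sequence and not a measured structure.

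The libraries held 14544516 to 19834361 miRNA reads each. Plasmid-derived miRNAs took part of them, and the 1608 miRNAs that no plasmid encodes held 92% of the reads with the empty vector, 70.5% with wild type, 70.7% with mutant 1 and 88.3% with mutant 2. Levels are therefore given as reads per 1000000 reads of these untransfected miRNAs (RPM). MiR-16-5p, by which the authors normalised, stood at 16944 RPM with the empty vector and 34753 to 41556 in the other 3 libraries, which received its plasmid.

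MiR-31-5p was among the most abundant miRNAs of HCT116 cells, and its passenger strand was present at a far lower but well measured level. Hsa-miR-31-5p had 319375 reads with the empty vector, 285703 with wild type, 249365 with mutant 1 and 301684 with mutant 2. Its level was 23868 RPM with the empty vector (23785 to 23951), 23338 with wild type (23253 to 23424), 17777 with mutant 1 (17708 to 17847) and 19934 with mutant 2 (19863 to 20005). On this scale the order was empty vector, wild type, mutant 2 and mutant 1, and no 2 neighbours in it overlapped in counting error. The order below the empty vector changed with the scale: per 1000000 of all miRNA reads mutant 2 (17605) was above wild type (16454), and per 1000 miR-16-5p reads mutant 1 (506) was above mutant 2 (479.7). MiR-31-5p ranked 9th of the 1344 names detected with the empty vector and held 2.2% of all miRNA reads there. In the wild-type, mutant 1 and mutant 2 libraries it held 1.65%, 1.26% and 1.76%.

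Hsa-miR-31-3p had 11283 reads with the empty vector, 17207 with wild type, 20905 with mutant 1 and 20532 with mutant 2. Its level was 843 RPM with the empty vector (828 to 859), 1406 with wild type (1385 to 1427), 1490 with mutant 1 (1470 to 1511) and 1357 with mutant 2 (1338 to 1375). On this scale the empty vector library was the low one, and the other 3 lay close together. Its rank among all detected names was 82 with the empty vector and 67, 59 and 62 in the wild-type, mutant 1 and mutant 2 libraries.

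With the empty vector, the miRNA next above miR-31-5p was miR-27b-3p, at 31960 RPM, and the next below was miR-222-3p, made in a cluster with miR-221, at 21695 (21616 to 21774). Neither overlapped miR-31-5p in counting error. MiR-31-3p stood between miR-584-5p, at 855 (840 to 871), and miR-221-5p, at 842 (826 to 857), and could not be ordered against either at this depth. Adapters join miRNAs of different sequence with different efficiency, so this is an order of reads and not of molecules.

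**Figure D1:**
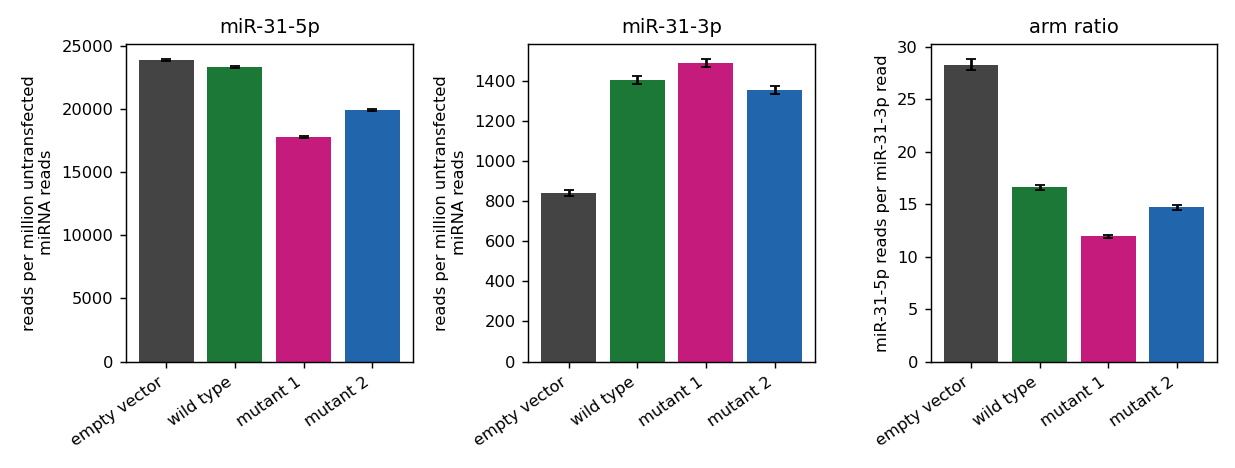
Levels of miR-31-5p (left) and miR-31-3p (middle) in reads per 1000000 untransfected miRNA reads (RPM), and miR-31-5p reads per miR-31-3p read (right), in the 4 libraries. Bars are single libraries and error bars are 95% intervals from counting error. The 5p level is lowest with mutant 1, the 3p level is lowest with the empty vector, and the ratio is 28.3 with the empty vector and between 11.9 and 16.6 in the others.

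Against the empty vector, the passenger strand was higher and the guide strand near its level there or lower in each of the transfected libraries. The 3 comparisons share the empty vector library, so they are not separate evidence. MiR-31-3p was 1.67-fold higher with wild type (log2 ratio 0.74, 0.70 to 0.77), 1.77-fold higher with mutant 1 (0.82, 0.79 to 0.85) and 1.61-fold higher with mutant 2 (0.69, 0.65 to 0.72), whereas division by miR-16-5p reads turned these log2 ratios to -0.30, -0.23 and -0.61. MiR-31-5p was at 0.978 of its empty vector level with wild type (log2 ratio -0.03), 0.745 with mutant 1 (-0.43) and 0.835 with mutant 2 (-0.26).

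The spread of the other miRNAs gives the scale for these ratios. Over the untransfected miRNAs that averaged 50 reads or more, the log2 ratio to the empty vector had a median of 0.09 and an SD of 0.40 with wild type (n = 471), a median of -0.02 and an SD of 0.49 with mutant 1 (n = 471), and a median of 0.05 and an SD of 0.37 with mutant 2 (n = 486). Neither miR-31 arm differed by more than 2-fold in any of these comparisons, which 1.91%, 3.82% and 1.44% of the untransfected miRNAs did. This depends on the scaling, since division by miR-16-5p reads put miR-31-5p past 2-fold lower in all 3, at log2 ratios of -1.07, -1.48 and -1.55. MiR-31-3p was more than 1.5-fold higher in all 3, as were 9.13%, 8.92% and 7.41% of the untransfected miRNAs. With all miRNA reads as the scale, its log2 ratios were 0.35, 0.44 and 0.63, and only that of mutant 2 was past 1.5-fold. The number of other miRNAs with a higher ratio than miR-31-3p was 23 of 470, 19 of 470 and 25 of 485 in the same order. MiR-31-5p lay within 1 SD of the median in each comparison, with 162 of 470, 93 of 470 and 77 of 485 other miRNAs lower.

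Scaling moved the median of all untransfected miRNAs together with miR-31. With miR-16-5p reads, that median log2 ratio to the empty vector was -0.95 with wild type, -1.07 with mutant 1 and -1.24 with mutant 2. Relative to the median, miR-31-3p was higher by 0.65, 0.84 and 0.64 on the log2 scale, and miR-31-5p stood at -0.12, -0.41 and -0.31, under any scaling of the libraries. Against the wild-type library, where both received pri-mir-16-1, miR-31-5p had a log2 ratio of -0.39 with mutant 1 and -0.23 with mutant 2, and miR-31-3p of 0.08 and -0.05. For mutant 2 the direction against wild type depended on the scaling in both arms. None of these passed 1.5-fold, as 14.9% of untransfected miRNAs did between mutant 1 and wild type and 2.71% between mutant 2 and wild type.

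The ratio between the arms needs no scaling, since both are counted in the same library. With the empty vector there were 28.3 miR-31-5p reads per miR-31-3p read (27.8 to 28.8), against 16.6 with wild type (16.4 to 16.9), 11.9 with mutant 1 (11.8 to 12.1) and 14.7 with mutant 2 (14.5 to 14.9). The share of miR-31 reads from the 3p arm was correspondingly 3.41% (3.35 to 3.47%), 5.68% (5.60 to 5.76%), 7.73% (7.63 to 7.84%) and 6.37% (6.29 to 6.46%). The 5p arm thus stayed the dominant strand in every library, and the empty vector library stood apart by the largest step. Hairpins of untransfected miRNAs were compared where each arm had at least 50 reads in the library, which left out those with a scarcer arm. Among them, the median ratio of the more to the less abundant arm was 15.8 with the empty vector, where miR-31 ranked 47th of 122. It ranked 57th of 121, 64th of 119 and 62nd of 128 in the wild-type, mutant 1 and mutant 2 libraries, where the medians were 12.9, 12.7 and 12.9.

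Against the empty vector, the arm ratio of miR-31 was 1.70-fold lower with wild type (log2 difference -0.77, -0.80 to -0.73), 2.37-fold lower with mutant 1 (-1.25, -1.28 to -1.21) and 1.93-fold lower with mutant 2 (-0.95, -0.98 to -0.91). A more abundant arm that was lower relative to the less abundant one by more than 1.5-fold was seen for 11.5%, 26.4% and 12.6% of the hairpins in these comparisons, and by more than 2-fold for 4.1%, 8.26% and 3.94%. The other hairpins had median log2 differences of -0.09, -0.15 and -0.03, with SDs of 0.64, 0.73 and 0.55. The SDs include extreme hairpins that went the opposite way, such as miR-574, at 4.68 with wild type and 2.70 with mutant 1. Some hairpins of different name, such as miR-338 and miR-3065 or miR-642a and miR-642b, had equal or nearly equal arm values. The hairpins counted are therefore not all separate. Of the other hairpins, 9 of 121, 3 of 120 and 6 of 126 were lower by as much as miR-31 or more, and 2 of the 119 hairpins measured in all 3 comparisons, miR-589 and miR-629, were so in each. These hairpins were picked after their values were seen. The mutant 1 library was also below the wild-type library, by 1.39-fold (-0.48, -0.51 to -0.45), and the mutant 2 library by 1.13-fold (-0.18, -0.21 to -0.15). A minor arm at least as high against the empty vector as miR-31-3p was found for 6, 8 and 11 of the other hairpins.

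**Figure D2:**
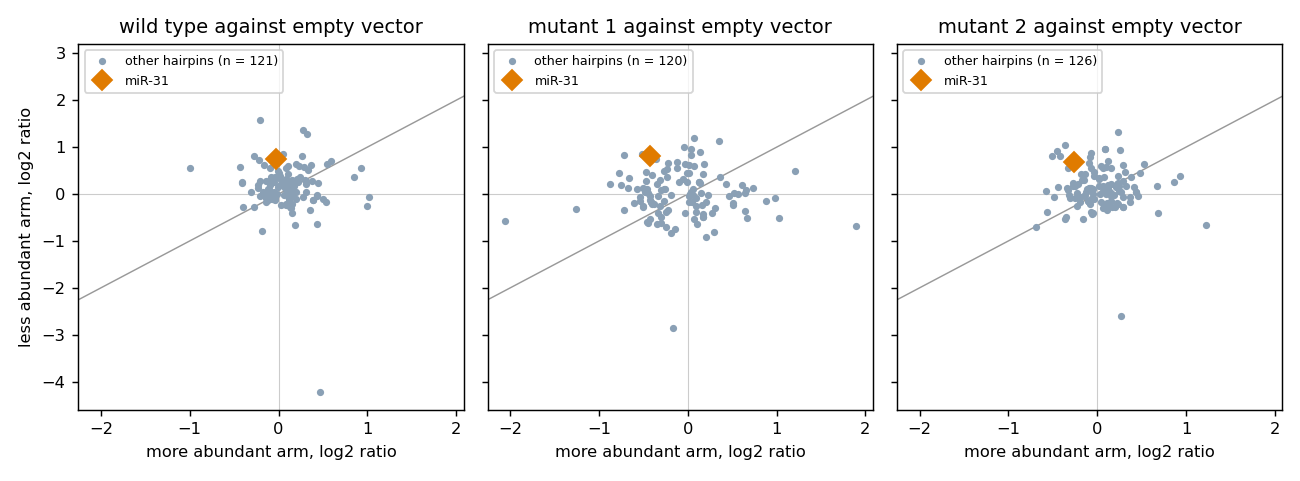
Log2 ratio to the empty vector library of the more abundant arm (horizontal axis) and the less abundant arm (vertical axis) of hairpins of untransfected miRNAs, each point a hairpin, with miR-31 as a diamond. On the diagonal both arms change equally and the arm ratio is kept. MiR-31 lies above the diagonal in the 3 panels, by 0.77, 1.25 and 0.95 on the log2 scale.

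The levels of miR-31-5p and miR-31-3p over the 4 libraries did not resemble each other more than those of other miRNAs. Over the 474 untransfected miRNAs compared, by the Euclidean distance between log2 levels centred on their mean, miR-31-3p ranked 446th from miR-31-5p, at 0.921 against a median of 0.433. In the other direction the same distance was less unusual: miR-31-5p ranked 360th from miR-31-3p, against a median of 0.701. Nearest to miR-31-5p were miR-1255a (0.0425), which had only 384 to 473 reads per library, miR-22-3p (0.0473) and miR-584-5p (0.0517). MiR-22-3p had 21138, 21104, 15548 and 18170 RPM in the empty vector, wild-type, mutant 1 and mutant 2 libraries. Nearest to miR-31-3p were miR-501-5p (0.123), miR-502-5p (0.138) and miR-331-3p (0.141), against a median of 0.701. Of these, miR-501-5p had only 229 to 381 reads per library and miR-502-5p 152 to 309, so their place rests on few reads. MiR-331-3p had 333, 600, 657 and 608 RPM in the same order. These distances rest on 4 libraries and are a description.

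The start of the 5p arm, which DROSHA sets and which fixes the seed, was the same in nearly all miR-31-5p reads of every library. The annotated start held 99.7% of them with the empty vector, 99.7% with wild type, 99.8% with mutant 1 and 99.7% with mutant 2. Only 810, 740, 549 and 769 reads started elsewhere, of which 776, 719, 537 and 740 started downstream. Among untransfected miRNAs with at least 1000 reads, miR-31-5p ranked 17th of 170 with the empty vector in the share at its most frequent start, where the median was 98.3%, and between 14th and 19th in the other libraries. The share changed by at most 0.03 percentage points against the empty vector, and with mutant 1 a change at least that large was seen in 151 of 166 other miRNAs.

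The most frequent miR-31-5p read was not the annotated one but the form 1 nt longer at the 3p end, at 22 nt. Reads ending 1 nt downstream of the annotated end were 83.7% of the arm with the empty vector (83.6 to 83.8%), 82.2% with wild type (82.0 to 82.3%), 80.9% with mutant 1 (80.7 to 81.0%) and 82.0% with mutant 2. The annotated end held only 5.02%, 5.60%, 5.21% and 5.55%, fewer than the form 2 nt longer, at 9.48%, 10.4%, 12.2% and 10.6%. The longer form with the annotated start, printed above as the most frequent read, had 266688, 234191, 201335 and 246875 reads. Its added base is the next base of the hairpin in the printed sequence. Because the files allow mismatches at the 3p end, whether each read carries that base or another was not tested. A most frequent 3p end that is 1 nt longer than annotated was found in 34 of 170 untransfected miRNAs with the empty vector (20%), while 101 of them had the annotated end. The share at the +1 end differed from the empty vector by -1.54, -2.81 and -1.69 percentage points in the wild-type, mutant 1 and mutant 2 libraries. Changes at least this large were seen in 66 of 166, 73 of 166 and 77 of 169 other miRNAs.

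MiR-31-3p was less uniform at its start, which DICER sets, than most miRNAs at theirs. The annotated start held 89.6% of its reads with the empty vector (89.0 to 90.2%), 88.7% with wild type (88.2 to 89.2%), 92.2% with mutant 1 (91.8 to 92.5%) and 89.8% with mutant 2 (89.4 to 90.2%). It ranked 140th of 170 with the empty vector by this measure, and 141st of 171, 136th of 174 and 147th of 182 in the other libraries. The other reads started downstream, with 7.06%, 8.50%, 5.51% and 7.41% at +1, apart from 7, 18, 22 and 31 reads that started upstream. In the mutant 1 library the share at the annotated start was 2.53 points higher than with the empty vector (1.87 to 3.21), a change that 18 of 166 other miRNAs (10.8%) reached. In the wild-type library the difference was -0.91 points (-1.64 to -0.17), and with mutant 2 that of 0.21 points (-0.48 to 0.92) was within counting error. Changes at least as large were seen in 28 of 166 (16.9%) and 77 of 169 (45.6%) other miRNAs.

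The 3p end of miR-31-3p, which DROSHA sets, also lay 1 nt beyond the annotated end in most reads. This end held 86.3% with the empty vector, 87.5% with wild type, 90.1% with mutant 1 and 88.7% with mutant 2, and the annotated end 6.42%, 6.0%, 4.92% and 5.34%. The annotated length of miR-31-3p was taken as 22 nt, the only one that keeps all its isoforms within the authors' limits of 18 to 26 nt. The most frequent miR-31-3p read was then 23 nt long, with 8730, 13395, 17430 and 16365 reads at the annotated start. The +1 end was more frequent than with the empty vector by 1.18, 3.78 and 2.38 points in the wild-type, mutant 1 and mutant 2 libraries, and 77 of 166, 65 of 166 and 57 of 169 other miRNAs changed at least as much. Start and end were not independent of each other: of the few reads that started at +3, 43.1% ended at +2 with the empty vector, 39.9% with wild type, 35.3% with mutant 1 and 31.4% with mutant 2, whereas only 1.65% to 1.80% of those with the annotated start did. Reads shorter than 18 nt or longer than 26 nt were not kept by the authors, which limits which pairs of ends can be seen.

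**Figure D3:**
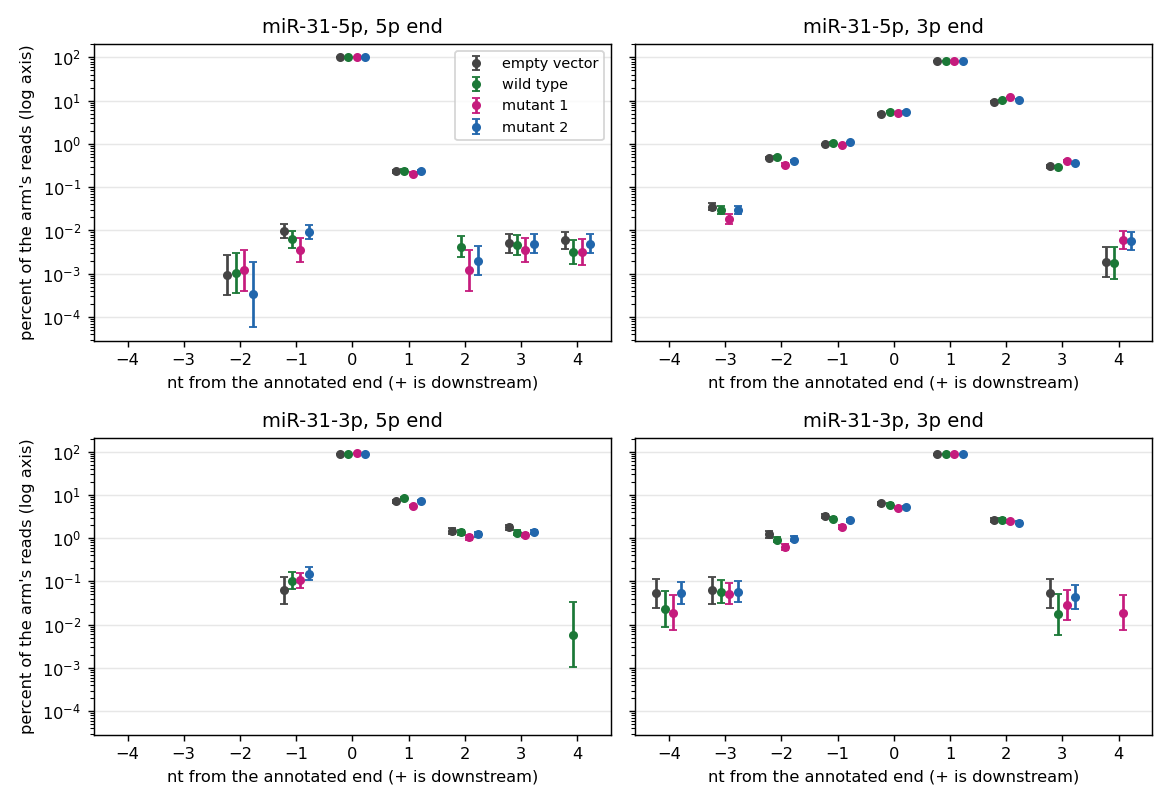
Share of the reads of miR-31-5p (top) and miR-31-3p (bottom) by the position of their 5p end (left) and 3p end (right), in nt from the annotated end, on a log axis, for the 4 libraries. Error bars are Wilson 95% intervals, and positions without reads have no point. Both arms start mostly at the annotated base and end mostly 1 nt downstream of the annotated end.

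Among miRNAs widely reported as higher in colorectal carcinoma, miR-31-5p was one of the most abundant in HCT116 cells. All 12 members of that list were detected with the empty vector, with a median of 5044 RPM, and 2 of them exceeded miR-31-5p: miR-21-5p, at 214063, the most abundant miRNA of the library, and miR-182-5p, at 46520. MiR-183-5p, of the same cluster as miR-182, was at 10541, and the remaining member of that cluster, miR-96-5p, was at only 150. The members of the miR-17/92 cluster ranged from 464 for miR-18a-5p through 527 for miR-19a-3p, 4011 for miR-17-5p and 6076 for miR-20a-5p to 6517 for miR-92a-3p. MiR-135b-5p was at 138 and miR-224-5p at 34.2. MiR-182-5p is encoded by a deposited plasmid sequence and was ranked in the empty vector library only. Although the listed mixtures do not hold pri-mir-182, miR-182-5p was at 209012 with wild type and 310104 with mutant 1, against 44849 with mutant 2. Of the 11 other members, including miR-31-5p, 0, 1 and 0 were more than 2-fold above their empty vector level with wild type, mutant 1 and mutant 2, where 1.7%, 1.91% and 1.03% of all untransfected miRNAs were, and 0 were more than 2-fold lower, as 0.212%, 1.91% and 0.412% of all were. The member counted with mutant 1 was miR-18a-5p, with log2 ratios of 0.93, 1.21 and 0.93. The median log2 ratios of the list were 0.09, 0.36 and 0.12, against 0.09, -0.02 and 0.05 over all untransfected miRNAs. Division by miR-16-5p reads moves each of these ratios as far down as the median of all untransfected miRNAs.

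With the empty vector, no miRNA of the list widely reported as lower in colorectal carcinoma reached the level of miR-31-5p. Few miRNAs of any kind did, since miR-31-5p ranked 9th of the 1344 names detected there. The 12 members of this list had a median of 33.4 RPM with the empty vector. The highest was miR-192-5p, a miRNA of intestinal epithelium, at 3003, whereas miR-194-5p and miR-215-5p, which share clusters or seeds with it, were at 31.8 and 35. MiR-143-3p and miR-145-5p, which are made mainly by mesenchymal cells in the gut, were at 229 and 90.7, and the plasmid-encoded miR-30a-5p was at 251 with the empty vector. MiR-139-5p was at 55.4, miR-195-5p at 21.1, miR-497-5p at 10.5 and miR-378a-3p at 7.47. MiR-1-3p and miR-133a-3p, miRNAs of muscle, had 0 reads in all 4 libraries, where up to 3 reads could have been missed by counting error. Among the untransfected members, miR-145-5p had the highest ratios, with log2 values of 0.99, 1.89 and 1.22 against the empty vector. Of the 9 untransfected members with reads, 0, 1 and 1 were more than 2-fold higher, against 1.7%, 1.91% and 1.03% of all untransfected miRNAs, and 0 were more than 2-fold lower, against 0.212%, 1.91% and 0.412%. Their median log2 ratios were 0.05, 0.00 and 0.12, against 0.09, -0.02 and 0.05 over all.

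**Figure D4:**
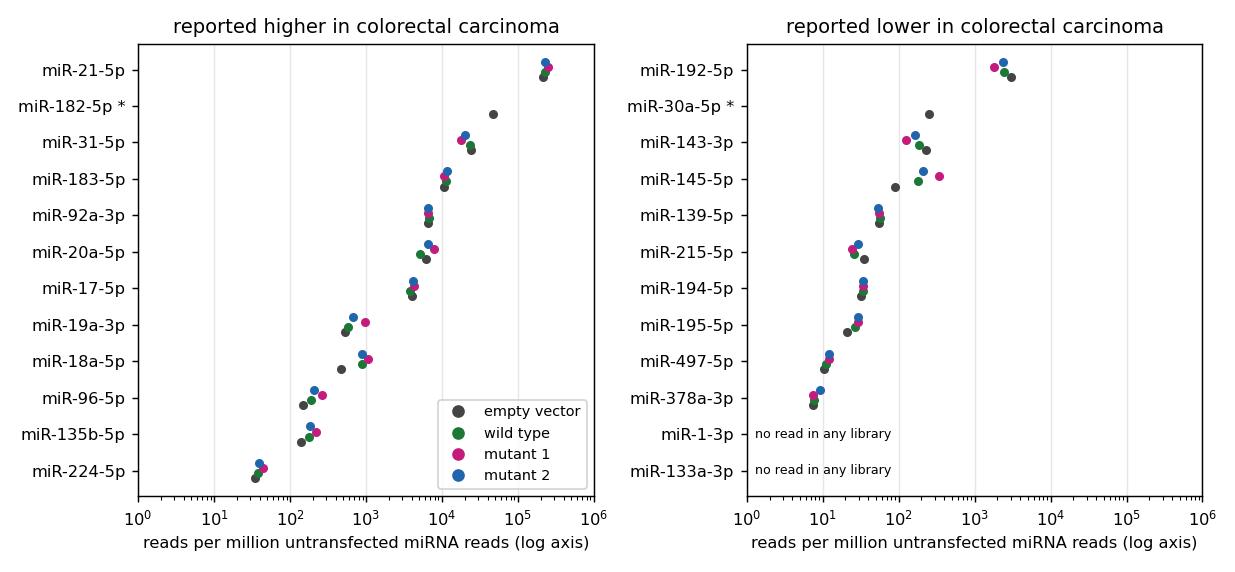
Levels of miRNAs reported as higher (left) or lower (right) in colorectal carcinoma, in reads per 1000000 untransfected miRNA reads (RPM) on a log axis, in the 4 libraries. An asterisk marks a miRNA that a plasmid sequence encodes, shown for the empty vector only. MiR-31-5p is behind only miR-21-5p and miR-182-5p on the left, at 17777 to 23868, above every value plotted on the right. With the empty vector it ranked 9th of all 1344 detected names, so few miRNAs of any kind lie above it.

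Among the lists of cell type markers, that of epithelial cells had the highest summed level with the empty vector. All 6 epithelial markers (miR-200a-3p, miR-200b-3p, miR-200c-3p, miR-141-3p, miR-429 and miR-203a-3p) were detected with the empty vector, at a summed level of 28672 RPM. The 5 that no plasmid encodes summed to 24256, 25767, 23365 and 23993 in the empty vector, wild-type, mutant 1 and mutant 2 libraries. Of the 6 fibroblast and muscle markers, miR-1-3p, miR-133a-3p and miR-199a-3p had 0 reads with the empty vector, and the sum of the list was 320, 366, 462 and 376 in the same order, nearly all from miR-143-3p and miR-145-5p. These differed in direction, with log2 ratios to the empty vector of -0.30, -0.87 and -0.48 for miR-143-3p and of 0.99, 1.89 and 1.22 for miR-145-5p. The 3 intestinal epithelial markers summed to 3069, 2501, 1849 and 2451, nearly all from miR-192-5p, which was at 3003, 2441, 1791 and 2387. On this scale miR-192-5p had the libraries in the same order as miR-31-5p, as did miR-143-3p (229, 186, 125 and 164) and the epithelial miR-203a-3p (1170.2, 1106, 803 and 971). MiR-194-5p (31.8, 33.7, 33.5 and 34.4) and miR-215-5p (35, 26, 24.2 and 29.2) each had another order. So did the epithelial miR-200a-3p, miR-200c-3p, miR-141-3p and miR-429. The share of all untransfected miRNAs with the order of miR-31-5p was not counted, so a shared order is a description only. The endothelial marker miR-126-3p was at 238 with the empty vector, the 4 blood markers summed to 13.3, the liver marker miR-122-5p was at 1.05, and of the neuronal markers miR-9-5p was at 0.523 and miR-124-3p had 0 reads. The part of any of these in the miR-31 levels was not tested.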

How the data were processed

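Small RNA libraries of HCT116 cells (TruSeq small RNA kit, TRIzol RNA) were analysed from the deposited counts. The authors trimmed adapters with cutadapt, kept reads of 18 to 26 nt with a quality of 20 or more in 90% of bases, mapped them to hg38 with Bowtie2, and assigned unambiguous reads with mismatches only at the 3p end to miRBase v22 loci. The counts, as deposited, are raw reads per isoform, without normalization. Negative 3p offsets were read as longer reads: with that sign, the lengths of all 10981 isoforms of the 1460 miRNAs with a RefSeq length lay within 18 to 26 nt, against 9274 with the other.

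Reads were summed over isoforms and divided by the reads of miRNAs that no plasmid sequence encodes. Intervals are exact Poisson (levels), normal on the log scale (ratios), Wilson (shares) and Newcombe (differences of shares). Reads carry no molecular identifiers. Ratios were described for miRNAs that averaged 50 reads or more and end shares for those with at least 1000. The miRNAs named are both miR-31 arms, the colorectal and marker lists, the neighbours in level and the 3 nearest profiles of each arm; those of any other miRNA were chosen after their values were seen. The members and lists were chosen with earlier results of these data known. Alternatives were other scalings (all miRNA reads, miR-16-5p, edgeR 4.0.16 TMM, DESeq2 1.42.0 median of ratios, in R 4.3.3), isoforms and read minimums. Python 3.11.15, pandas 2.3.3, numpy 2.4.6, scipy 1.17.1, matplotlib 3.10.9 and RNAfold 2.7.2 were used, and the procedure was tested on simulated data. No test between conditions was made. Other experiments of the study were not analysed here.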

Additional observations from a re-analysis of the deposited data

How the results depend on the processing

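With 1 library per condition, reproducibility between transfections was not measured, and depth limits rare ends, the profiles of miRNAs with few reads and the number of miRNAs past 2-fold, which moves with the read minimum. No paired analysis was possible because each condition has a single library. The lower arm ratio in the transfected libraries held under both choices of isoform: with the most frequent 5p end of each arm it was 31.5, 18.7, 12.9 and 16.3 in the empty vector, wild-type, mutant 1 and mutant 2 libraries, and with the most frequent isoform of each arm 30.5, 17.5, 11.6 and 15.1. Levels are relative. Per 1000000 of all miRNA reads, miR-31-5p was 21958, 16454, 12572 and 17605 and miR-31-3p 776, 991, 1054 and 1198, and per 1000 miR-16-5p reads they were 1409, 672, 506 and 479.7, and 49.8, 40.4, 42.4 and 32.6. The log2 ratios of miR-31-5p to the empty vector in the wild-type, mutant 1 and mutant 2 libraries were -0.42, -0.80 and -0.32 with all miRNA reads, -1.07, -1.48 and -1.55 with miR-16-5p, -0.15, -0.30 and -0.30 with TMM, -0.13, -0.33 and -0.30 with the median of ratios, and -0.059, -0.47 and -0.29 with the most frequent isoform only. Those of miR-31-3p were 0.35, 0.44 and 0.63 with all miRNA reads, 0.62, 0.95 and 0.64 with TMM, 0.64, 0.92 and 0.65 with the median of ratios, and, with the most frequent isoform only, 0.93 in the mutant 1 and 0.73 in the mutant 2 library. They reversed with miR-16-5p, to -0.30, -0.23 and -0.61, where the plasmid of pri-mir-16-1 is in every library but the empty vector one. Mutant 2 against wild type also reversed, for miR-31-5p to 0.10 with all miRNA reads, and for miR-31-3p to 0.27 with all miRNA reads, 0.021 with TMM and 0.0057 with the median of ratios. The cause was not tested.

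Shares at the most frequent 5p end stayed within their intervals in 8 of 8 values when only 3p ends within 2 nt were kept, and those at the most frequent 3p end in 7 of 8 values with the most frequent 5p end only, the exception being miR-31-3p in the mutant 1 library, at 90.5%. The number of untransfected miRNAs past 2-fold against the empty vector was 9, 18 and 7 in the wild-type, mutant 1 and mutant 2 libraries. It was 62, 89 and 56 with a mean of at least 10 reads, 1, 6 and 3 with at least 200, 403, 418 and 383 with no filter and 1 read added, and 51, 97 and 45 past 1.5-fold.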

Other observations

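The hairpins of miR-589 and miR-629, which were singled out after their values were seen, were the others whose arm ratio was at least as far below the empty vector as that of miR-31 in each of the 3 comparisons. The log2 differences of miR-589 were -1.02, -1.56 and -1.22 in the wild-type, mutant 1 and mutant 2 libraries, and those of miR-629 were -1.78, -1.36 and -1.41. The comparisons share the empty vector library, and the number of libraries limits what can be read from them.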
